A study of Mus musculus with 12 samples.

Results

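Pla2g5, Atg9b, Dok7, Lrp8 and Mboat1 are 5 mouse genes picked for their high transcript levels in Apc-deleted small intestine compared with wild type, out of the 55421 gene identifiers in a table of RNA sequencing counts. They were chosen by their counts in the Apc and WT libraries, so that difference is given as a description and nothing is supported with it. The open question for these genes is whether the high level is kept when Eif3h is deleted together with Apc. The tissue was small intestine, with 4 libraries in each of 3 groups. The Apc Eif3h group carried VilCreER, a Cre recombinase activated by tamoxifen and driven by the villin promoter of gut epithelium, with floxed alleles of Apc and of Eif3h. The Apc group carried the same VilCreER with floxed Apc alleles alone, and the WT group was labelled wild type. The protocol text describes tamoxifen for all of them, as 2 intraperitoneal injections of 80 mg/kg, 24 hours apart. The labels give day 4 for Apc Eif3h and Apc and day 7 for WT, while the treatment text gives 7 days for every mouse, and in comparisons with WT the effects of genotype and of day cannot be told apart. All 4 Apc Eif3h libraries came from males, against 3 of 4 in Apc and 3 of 4 in WT. Whether the replicates are different mice is not stated, and the p-values reflect the spread of these samples alone, which may be technical. Cells outside the epithelium keep their floxed alleles in such mice.

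The APC protein holds beta-catenin in check, and its loss switches on the Wnt target programme that normally marks crypts. EIF3H is a subunit of the translation initiation factor eIF3. The products of the 5 genes act in different places. Pla2g5 encodes a secreted, calcium-dependent phospholipase A2, which frees a fatty acid and a lysophospholipid from membrane phospholipids. Mboat1 encodes a membrane-bound acyltransferase that puts a fatty acid back onto lysophospholipids. Lrp8, also called ApoER2, is a receptor of the LDL receptor family that binds reelin, apolipoprotein E and selenoprotein P and is best known in neurons. Atg9b is the paralog of Atg9a, a lipid scramblase that supplies membrane to the growing autophagosome. Dok7 is a cytoplasmic adaptor that activates the receptor kinase MuSK at the neuromuscular junction.

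The genes lie on 3 chromosomes of GRCm38 (GENCODE M21). Pla2g5 (ENSMUSG00000041193) spans 138799244 to 138863482 of chromosome 4 on the minus strand. Lrp8 (ENSMUSG00000028613) spans 107802261 to 107876840 of the same chromosome on the plus strand. Atg9b (ENSMUSG00000038295) spans 24384181 to 24392143 of chromosome 5 on the minus strand, and Dok7 (ENSMUSG00000044716) spans 35056766 to 35087839 of that chromosome on the plus strand. Mboat1 (ENSMUSG00000038732) spans 30136489 to 30246717 of chromosome 13 on the plus strand.

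Promoter windows, from 250 bases before to 50 after a RefSeq gene start in GRCm38.p6, were given for all 5 genes, 9 windows in all. They were searched on both strands for TCAAAG, a core recognised by the TCF/LEF factors that act with beta-catenin, and for CACGTG, the E-box of MYC. TCAAAG is in 16.0% and CACGTG in 7.15% of all 32851 windows of this length, and in 0 of these 9. The sister core ACAAAG, which was added after the windows had been read, is in 18.7% of all windows. It occurs at 1 place in the first Pla2g5 window (chr4:138863420-138863719, minus strand) and at 2 in the third Lrp8 window (chr4:107830703-107831002, plus strand). Those windows are shown 5′ to 3′ with these letters, or CTTTGT on the other strand, in capitals. The Mboat1 window (chr13:30136240-30136539, plus strand) and the Atg9b window (chr5:24392094-24392393, minus strand) follow because they have the highest and lowest GC content among the 9.
Pla2g5: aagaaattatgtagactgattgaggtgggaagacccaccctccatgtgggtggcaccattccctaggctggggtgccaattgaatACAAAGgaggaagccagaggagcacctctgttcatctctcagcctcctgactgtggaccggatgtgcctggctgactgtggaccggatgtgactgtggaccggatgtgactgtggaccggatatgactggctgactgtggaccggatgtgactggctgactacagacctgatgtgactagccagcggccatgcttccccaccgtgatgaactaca
Lrp8: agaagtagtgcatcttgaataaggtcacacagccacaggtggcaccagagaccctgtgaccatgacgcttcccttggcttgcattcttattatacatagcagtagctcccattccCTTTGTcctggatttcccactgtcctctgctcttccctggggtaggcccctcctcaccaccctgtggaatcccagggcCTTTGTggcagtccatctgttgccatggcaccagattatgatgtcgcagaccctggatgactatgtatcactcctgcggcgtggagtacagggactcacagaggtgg
Mboat1: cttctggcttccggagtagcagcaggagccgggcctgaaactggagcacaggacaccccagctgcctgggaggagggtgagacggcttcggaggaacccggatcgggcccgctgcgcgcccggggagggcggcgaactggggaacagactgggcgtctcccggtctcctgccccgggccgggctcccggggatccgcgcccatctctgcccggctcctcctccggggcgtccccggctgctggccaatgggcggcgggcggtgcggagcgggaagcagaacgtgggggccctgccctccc
Atg9b: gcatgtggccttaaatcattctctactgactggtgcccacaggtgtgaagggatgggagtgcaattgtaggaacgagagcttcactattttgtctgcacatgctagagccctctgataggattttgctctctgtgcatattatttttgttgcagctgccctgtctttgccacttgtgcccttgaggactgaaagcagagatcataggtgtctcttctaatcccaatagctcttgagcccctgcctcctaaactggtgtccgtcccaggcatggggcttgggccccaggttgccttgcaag
GC content is 74.3% in the Mboat1 window and 50.7% in the Atg9b window, beside a median of 52.7% over all windows. No other window of the 9 held ACAAAG. A match describes letters only, and the absence of one says only that these letters are not in the window.

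Library totals ran between 10483112 and 21298301 counts. Eif3h was at 25.9 to 54.6 CPM in Apc Eif3h, 158 to 175 CPM in Apc and 126 to 142 CPM in WT (CPM being counts scaled to library size after TMM), so every Apc Eif3h library carried less of it than any other (log2 fold change against Apc -2.13, SE 0.19, adjusted p = 0.000405, edgeR). Apc transcripts were at 92.8 to 121 CPM in Apc Eif3h, 106 to 123 in Apc and 87.4 to 98.3 in WT, and whole-gene counts need not show a deleted exon. Epithelial markers (Epcam, Vil1, Cdh1, Krt8, Krt20) summed to 5592 to 8522, 6390 to 7713 and 7833 to 11410 CPM in the same order, with none at 0. Of these 5 markers, 2 were called lower in each mutant group against WT (edgeR, adjusted p below 0.05). Enterocyte markers (Alpi, Apoa1, Fabp2, Sis, Mttp) summed to 8757 to 14030 CPM in Apc Eif3h, 6926 to 12490 in Apc and 17010 to 23490 in WT, with 3 of 5 called lower in each mutant group against WT. Wnt target and crypt base markers (Lgr5, Axin2, Ascl2, Sox9, Notum) summed to 482 to 647, 558 to 608 and 77.7 to 118 CPM. All 5 were called higher in each mutant group against WT, while 1 of the 5 was called lower in Apc Eif3h against Apc. Of all genes tested, 24.1% were called lower and 27.7% higher in Apc against WT, and 28.1% and 29.8% in Apc Eif3h against WT. Against Apc, 2.78% of all genes were called lower in Apc Eif3h. In bulk tissue, more cells of a type and more RNA per cell cannot be told apart. The part of cell composition in the levels that follow was not tested.

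All 5 genes stayed far above WT when Eif3h was deleted with Apc. In Apc Eif3h against WT all 5 were called higher (edgeR, adjusted p below 0.05), where 57.8% of the 17394 genes tested were called, 29.8% higher and 28.1% lower. In all 5 the lowest Apc Eif3h library lay above the highest WT library, as in 26.9% of genes, while 20.7% had every library below WT. These WT libraries had also served to choose the genes, as had the Apc libraries of the next comparison. That choice favours high Apc and low WT levels, so the calls and adjusted p values against WT are not independent of it. The shares of the Apc rise given below are a description only. In Apc Eif3h against Apc, which is matched for day by the labels, 0 of 5 were called, where 7.05% of genes were. The libraries of these groups overlapped for all 5, while 7.89% of genes had every Apc Eif3h library above Apc and 7.26% every one below. At an unadjusted p below 0.05 the number was 1 of 5, Pla2g5, and 4095 of the 17394 genes, and DESeq2 also called 0 of 5. Leaving out any library gave adjusted p values from 0.0654 to 0.975 and no call. The 5 log2 fold changes of that comparison ran from -0.50 to 0.38, beside a median of 0.00 over all genes tested, whose quartiles were -0.20 and 0.19. Among the 4820 genes called higher in Apc against WT, 5.17% were called lower and 7.43% higher in Apc Eif3h against Apc, and 85.0% were called higher in Apc Eif3h against WT.

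**Figure D1:**
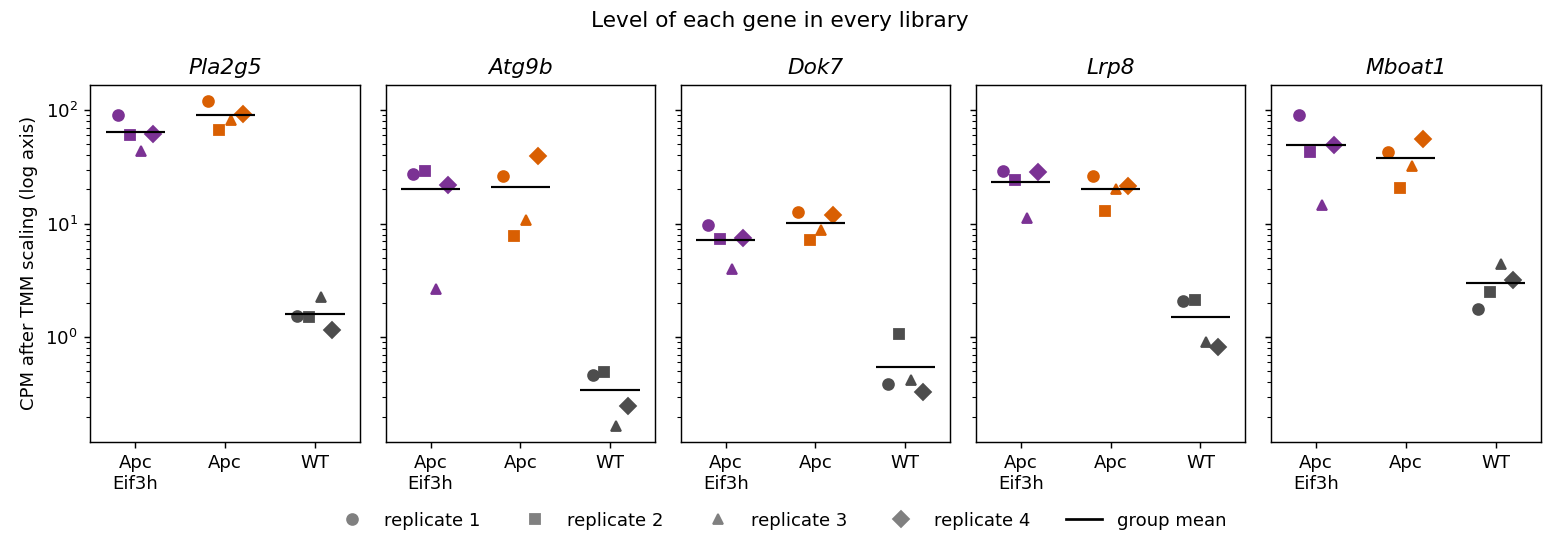
Level of each gene in the 12 libraries, in CPM after TMM scaling on a log axis; points are libraries (shape gives the replicate number) and lines are group means of 4. The Apc Eif3h and Apc points overlap for every gene, and all lie above the WT points, with Atg9b in Apc Eif3h replicate 3 (2.67 CPM) nearest the axis foot among the mutant libraries.

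Pla2g5, the secreted phospholipase, had the highest mean of the 5 per exon length in both mutant groups. Its 4 Apc Eif3h libraries were at 91.4, 59.9, 43.4 and 61.1 CPM, its Apc libraries at 120.0, 66.6, 82.7 and 91.9 CPM, and its WT libraries at 1.55, 1.495, 2.25 and 1.15 CPM. The mutant groups overlapped, though the lowest 3 values of the 8 were all from Apc Eif3h. Apc Eif3h averaged 64.0 ± 20.0 CPM and Apc 90.3 ± 22.4 CPM (SD, n = 4 each), a log2 fold change of -0.50 (SE 0.22, adjusted p = 0.196, unadjusted p = 0.0422). The 95% interval of that difference was -0.97 to -0.02, or 0.51 to 0.986 as a ratio, and the drop was not called after adjustment. Against WT (1.61 ± 0.458 CPM, n = 4) Apc Eif3h was higher, with a log2 fold change of 5.31 (SE 0.29, adjusted p = 9.44e-07), and Apc was higher by 5.80 (SE 0.30, no test). Apc Eif3h thus held 70.3% of the rise in mean CPM seen in Apc, and 91.5% of the rise on the log2 scale.

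Dok7, the MuSK adaptor, was at 9.83, 7.30, 3.97 and 7.41 CPM in Apc Eif3h, at 12.6, 7.16, 8.87 and 11.9 CPM in Apc, and at 0.387, 1.07, 0.416 and 0.33 CPM in WT. Apart from replicate 3, the Apc Eif3h values fell inside the Apc range. Apc Eif3h averaged 7.13 ± 2.41 CPM against 10.1 ± 2.55 CPM in Apc (SD, n = 4 each), a log2 fold change of -0.50 (SE 0.27, 95% interval -1.09 to 0.09, adjusted p = 0.294). Apc Eif3h was higher than WT by 3.64 (SE 0.40, adjusted p = 1.56e-05) and Apc by 4.14 (SE 0.39, no test). The mean in Apc Eif3h held 68.7% of the CPM rise in Apc, and 87.9% of the log2 rise. The interval of the difference from Apc included 0, so a loss is not shown. WT replicate 2, with 15 counts where the other WT libraries had 4 or 5, set much of the WT mean of 0.55 CPM, and without it Apc was higher than WT by 4.71.

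Lrp8, the reelin and apolipoprotein E receptor, was at 28.9, 24.1, 11.3 and 28.5 CPM in Apc Eif3h, at 26.5, 13.01, 20.4 and 21.3 CPM in Apc, and at 2.09, 2.14, 0.915 and 0.824 CPM in WT. Here 2 Apc Eif3h libraries were above every Apc library and replicate 3 was below every one. The Apc Eif3h mean was 23.2 ± 8.23 CPM and the Apc mean 20.3 ± 5.57 CPM (SD, n = 4 each), a log2 fold change of 0.20 (SE 0.30, 95% interval -0.45 to 0.85, adjusted p = 0.737). Apc Eif3h was higher than WT by 3.93 (SE 0.39, adjusted p = 8.05e-06) and Apc by 3.73 (SE 0.39, no test). The mean CPM rise in Apc Eif3h came to 115% of that in Apc, and the log2 rise to 105%.

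Mboat1, the lysophospholipid acyltransferase, was at 89.8, 42.6, 14.5 and 49.55 CPM in Apc Eif3h, at 42.5, 20.6, 32.5 and 55.9 CPM in Apc, and at 1.78, 2.49, 4.41 and 3.21 CPM in WT. Replicates 1 and 3 of Apc Eif3h were the highest and the lowest of the 8 mutant libraries, 6.19-fold apart. Apc Eif3h averaged 49.1 ± 31.1 CPM and Apc 37.9 ± 15.0 CPM (SD, n = 4 each), a log2 fold change of 0.38 (SE 0.43, 95% interval -0.56 to 1.31, adjusted p = 0.648). It turned to -0.0858 without Apc Eif3h replicate 1. Against WT the log2 fold change was 4.05 for Apc Eif3h (SE 0.53, adjusted p = 5.16e-05) and 3.68 for Apc (SE 0.53, no test). The rise in Apc Eif3h was 132% of that in Apc in mean CPM and 110% on the log2 scale.

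Atg9b, the autophagy scramblase paralog, varied most among Apc libraries. It was at 27.5, 29.3, 2.67 and 21.8 CPM in Apc Eif3h, at 26.2, 7.84, 10.8 and 39.1 CPM in Apc, and had 6, 7, 2 and 3 counts in the 4 WT libraries, or 0.166 to 0.499 CPM. The coefficient of variation was 60.0% in Apc Eif3h and 69.1% in Apc, with a 10.99-fold span between libraries in Apc Eif3h and 4.99-fold in Apc. Means of 20.3 ± 12.2 CPM in Apc Eif3h and 20.98 ± 14.5 CPM in Apc (SD, n = 4 each) gave a log2 fold change of -0.04 (SE 0.58, 95% interval -1.30 to 1.22, adjusted p = 0.974). That interval allows Apc Eif3h to hold from 0.406 to 2.32 times the Apc level, so these libraries do not settle how much of the Atg9b level was kept. The sign turned without Apc Eif3h replicate 3 (0.35), without Apc replicate 4 (0.47) and without Apc replicate 1 (0.0779). Against WT, Apc Eif3h was higher by 5.82 (SE 0.93, adjusted p = 0.00023) and Apc by 5.86 (SE 0.93, no test), on few WT counts. By these means the rise in Apc Eif3h was 96.85% of that in Apc in CPM and 99.3% on the log2 scale, within the wide interval above.

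**Figure D2:**
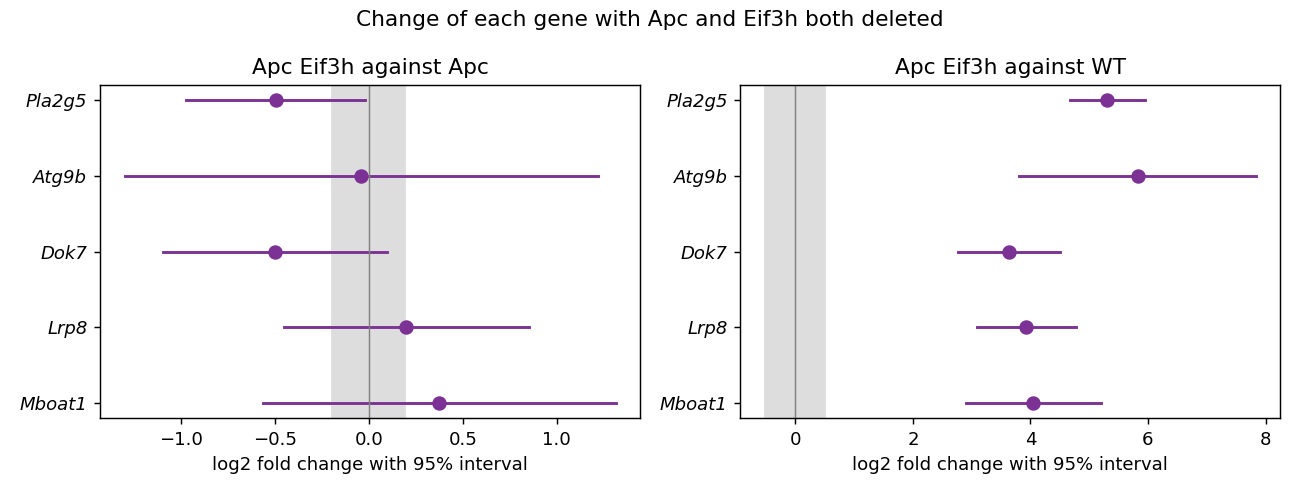
Log2 fold changes of Apc Eif3h against Apc (left) and against WT (right) with 95% intervals from the edgeR fit of 12 libraries; the grey band runs between the quartiles of all 17394 genes. Against Apc the points lie between -0.50 and 0.38 and against WT between 3.64 and 5.82.

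Per kilobase of annotated exon, Pla2g5 led in Apc at 31.3 CPM per kb, ahead of Mboat1 at 10.35, Atg9b at 5.32, Dok7 at 2.37 and Lrp8 at 1.93 (means of 4). In Apc Eif3h the means were 22.2 for Pla2g5, 13.4 for Mboat1, 5.15 for Atg9b, 2.21 for Lrp8 and 1.67 for Dok7. Pla2g5 in Apc, at 23.1 to 41.6 CPM per kb, had all libraries above those of the next gene, Mboat1, at 5.64 to 15.3. In Apc Eif3h these overlapped, at 15.1 to 31.7 for Pla2g5 and 3.97 to 24.55 for Mboat1. Atg9b overlapped Mboat1 (1.99 to 9.90 CPM per kb in Apc) and Lrp8 overlapped Dok7 (1.24 to 2.52 and 1.68 to 2.94), so their order lies within the spread between libraries. In WT every gene was at or below 1.21 CPM per kb in each library.

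The same libraries were low for all 5 genes. Apc Eif3h replicate 3 was the lowest Apc Eif3h library for 5 of 5 genes, and Apc replicate 2 was the lowest Apc library for 5 of 5. Replicate 3 stood at 0.725 times the next lowest Apc Eif3h library for Pla2g5, 0.544 for Dok7, 0.469 for Lrp8, 0.341 for Mboat1 and 0.122 for Atg9b, and still 3.29 to 19.3 times above the highest WT library. Over all genes tested, 31.2% were lowest in replicate 3 among Apc Eif3h libraries and 25.2% in replicate 2 among Apc libraries. Among the 4389 genes called higher in Apc whose libraries did not overlap WT, the shares were 64.7% and 51.6%. Apc Eif3h replicate 3 also had the highest Eif3h level of its group (54.6 CPM), the highest enterocyte marker sum (14030 CPM) and the lowest sums of Wnt target markers (482 CPM) and of proliferation markers Mki67, Top2a, Ccnb1, Cdk1 and Mcm2 (497 CPM). Apc replicate 2 had the highest enterocyte sum (12490 CPM) and the lowest proliferation sum (569 CPM) of the Apc group. Its Wnt target sum (564 CPM) was not the lowest, which was that of Apc replicate 1 (558 CPM). The part of these differences in the members' levels was not tested. Without Apc Eif3h replicate 3, the means were 70.8 ± 17.9 CPM for Pla2g5, 26.2 ± 3.94 for Atg9b, 8.18 ± 1.43 for Dok7, 27.2 ± 2.69 for Lrp8 and 60.65 ± 25.5 for Mboat1 (SD, n = 3), or 78.1%, 125%, 79.6%, 136% and 165% of the CPM rise in Apc. None of the 5 was called against Apc without it (adjusted p from 0.217 to 0.655). Leaving out the lowest library of a group can only raise its mean. Apc replicate 2, the lowest Apc library, was kept, so nothing is concluded from these shares.

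**Figure D3:**
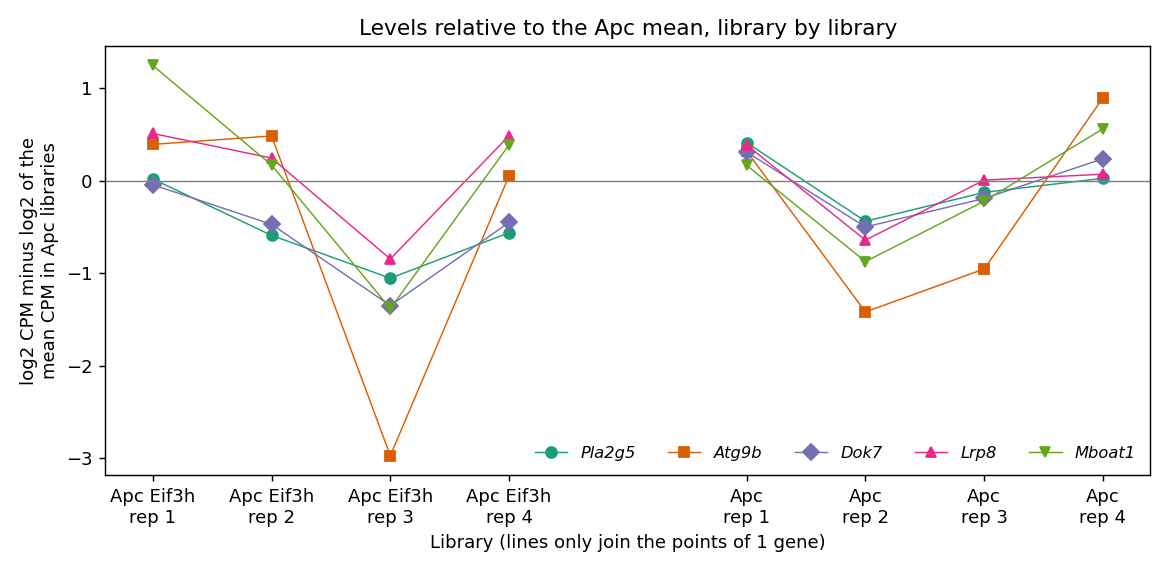
Level of each gene in the 8 mutant libraries as log2 CPM minus the log2 of its mean in Apc; lines only join points of 1 gene. All 5 genes dip in Apc Eif3h replicate 3 and in Apc replicate 2, and Atg9b has the widest swing.

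Likeness was measured as the root mean square difference between centred log2 CPM profiles over the 12 libraries, among 14653 named genes that passed the count filter. The values are a description, since all profiles share the same libraries and the same step between WT and the mutants. Dok7 and Lrp8 were closest among the 5, at 0.42 log2 units, and Pla2g5 and Atg9b were each 0.88 or more from every other member. Nearest to Pla2g5 outside the 5 were Gulo (0.54), which encodes the last enzyme of vitamin C synthesis, and the transcription factors Etv4 (0.57) and Msx1 (0.60). Among the genes nearest to Dok7 outside the 5 were Macc1 (0.44) and the TNF receptor family gene Tnfrsf8 (0.48). Outside the 5, Lrp8 was nearest to the kinase gene Dyrk3 (0.47), the serine synthesis gene Phgdh (0.47) and the stem cell transcription factor Ascl2 (0.50). Among those nearest to Mboat1 outside the 5 were Macc1 (0.61) and Ddah1 (0.62). Outside the 5, the genes nearest to Atg9b were Etv4 (0.82), Gulo (0.84) and Epop (1.03), and the other 4 members lay between Gulo and Epop, at 0.88 to 0.9985.

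On the scale that chose them, the genes stood at places 4 (Atg9b), 5 (Pla2g5), 10 (Dok7), 14 (Lrp8) and 15 (Mboat1) of 3649 genes raised in Apc against WT with a mean log2 CPM of 1 or more. All 5 were called higher there, where 51.8% of genes were called and 27.7% were higher. All 5 also had every Apc library above every WT library, as did 26.7% of genes, and nothing is read from either count. The 5 are not an unbroken run, since places 6 to 9 and 11 to 13 were held by genes outside the 5. The lowest member was Mboat1 at 3.68, and next below it were Dyrk3 at 3.44, Slc40a1 at 3.33 and Phlda2 at 3.31. Above the members were Msx1 at 5.90, Cited1 at 6.66 and Gulo at 7.47.

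The relatives of Pla2g5 moved in both directions. In Apc against WT, 3 of 8 tested genes on the secreted phospholipase A2 list were called higher and 2 lower. The shares of all genes were 27.7% and 24.1%. The median log2 fold change of the list was 0.05, beside -0.01 over all genes. Pla2g12a rose to 55.1 ± 4.46 CPM in Apc, against 11.97 ± 1.41 CPM in WT (log2 fold change 2.20, SE 0.11, adjusted p = 3.07e-07). Pla2g2f rose to 41.9 ± 11.2 CPM in Apc, against 6.10 ± 2.66 in WT (2.77, SE 0.33, adjusted p = 4.62e-05). Pla2g2a, the Paneth cell phospholipase, was at 109 ± 27.8 CPM in Apc and 14.2 ± 7.84 in WT (2.93, SE 0.42, adjusted p = 0.000141; SD, n = 4 each). Pla2g12b fell to 55.2 ± 10.3 CPM in Apc, against 113 ± 23.1 in WT (-1.03, SE 0.20, adjusted p = 0.000997). The receptor Pla2r1 fell by 0.41 (adjusted p = 0.0196), a call lost without WT replicate 2, without Apc replicate 4, with males only and with library totals alone. The counts were 3 higher and 3 lower in Apc Eif3h against WT (29.8% and 28.1% of all genes). Between Apc Eif3h and Apc, 0 were higher and 2 lower (4.27% and 2.78% of all genes). Pla2g2f was at 17.3 ± 5.68 CPM in Apc Eif3h (-1.28 against Apc, SE 0.30, adjusted p = 0.0268, lost in 5 of 12 fits without a library, up to 0.0855). Pla2g3 fell to 1.04 ± 0.307 CPM in Apc Eif3h, against 2.47 ± 0.339 in Apc (-1.25, SE 0.23, adjusted p = 0.00943).

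Pla2g2a lies inside the span of Pla2g5 on the opposite strand, at 138831857 to 138835186 of chromosome 4, where GENCODE M21 lists it as a polymorphic pseudogene. The exons of these genes share 0 bases. Pla2g2a was at 95.5, 44.1, 55.1 and 39.9 CPM in Apc Eif3h, at 133, 83.1, 133 and 86.7 CPM in Apc, and at 11.3, 18.9, 22.0 and 4.61 CPM in WT. Apc Eif3h against Apc gave -0.89 for it (SE 0.38, adjusted p = 0.181), a difference that was not called. Paneth cell markers (Lyz1, Mmp7, Itln1, Defa24, Ang4) summed to 1186 to 6528 CPM in Apc Eif3h, 4138 to 8762 in Apc and 1079 to 6806 in WT, all 5 in the table and none at 0, and their part in these levels was not tested. The strand setting of the counting is not given in the sources used here.

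All 32 core autophagy genes were tested, and 3 were called higher and 15 lower in Apc against WT, where 27.7% of all genes were higher and 24.1% lower, with a median of -0.26 beside -0.01 over all genes. Atg9a, the widely expressed paralog of Atg9b, was at 41.1 ± 3.10 CPM in Apc and 58.8 ± 7.00 CPM in WT (-0.52, SE 0.15, adjusted p = 0.0107, call lost with males only and with library totals). The conjugation factor Atg12 fell by 0.57 (SE 0.09, adjusted p = 0.000233), the autophagy receptor Sqstm1 by 0.77 (SE 0.13, adjusted p = 0.00036) and the LC3 gene Map1lc3a by 0.64 (SE 0.11, adjusted p = 0.000487). The higher ones were Atg7, Atg16l1 and Atg16l2, at 0.35, 0.54 and 0.75. With library totals as the only scaling the split became 10 higher and 8 lower, and that scaling moved the median of all genes to 0.22. Apc Eif3h against WT gave 3 higher and 19 lower (29.8% and 28.1% of all genes), or 8 and 14 with library totals. Set against Apc, Apc Eif3h had 1 higher and 3 lower (4.27% and 2.78% of all genes). Wipi1, which binds phosphoinositide on forming autophagosomes, fell to 11.65 ± 1.28 CPM in Apc Eif3h, against 22.25 ± 1.35 CPM in Apc (-0.93, SE 0.11, adjusted p = 0.00167). The initiating kinase gene Ulk1 fell to 37.0 ± 3.26 CPM, against 49.4 ± 2.04 CPM in Apc (-0.42, SE 0.08, adjusted p = 0.00869). Those calls held in all 20 alternatives tried, while Pik3c3 (-0.31) and Atg3 (0.36) lost theirs in 16 and 8 of them.

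Atg9b ends over its neighbour Nos3, the endothelial nitric oxide synthase gene on the opposite strand, with 294 shared exon bases, or 7.45% of its exon length. Nos3 was at 2.96 ± 0.43 CPM in Apc Eif3h, 3.60 ± 1.03 CPM in Apc and 4.10 ± 1.14 CPM in WT (SD, n = 4 each), with no call in any comparison (adjusted p from 0.108 to 0.585). Apc Eif3h replicate 3 had the least Atg9b of its group (43 counts) and the most Nos3 (57 counts, beside 56 in replicate 4). The part of Nos3 reads in the Atg9b counts was not tested. On the other side of Atg9b, 1520 bases away, Abcb8 was higher by 0.43 in Apc against WT (SE 0.08, adjusted p = 0.00112). Kcnh2, 32577 bases from Atg9b on the Nos3 side, was lower by 0.98 (SE 0.23, adjusted p = 0.00375).

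Musk, the kinase that Dok7 activates in muscle, averaged 0.286 ± 0.161 CPM in Apc Eif3h, 0.415 ± 0.316 in Apc and 0.595 ± 0.282 in WT, and did not pass the count filter. Of 15 genes on the agrin-MuSK and DOK list 7 were tested, and 2 were called higher and 1 lower in Apc against WT. Over all genes the shares were 27.7% and 24.1%. The median of the list was -0.11 (0.12 with library totals). The agrin receptor gene Lrp4 rose to 72.5 ± 5.09 CPM in Apc, against 47.5 ± 4.74 CPM in WT (0.61, SE 0.10, adjusted p = 0.000399). In Apc Eif3h it was at 52.2 ± 6.16 CPM, below every Apc library (-0.48, SE 0.10, adjusted p = 0.0171), a call lost without Apc replicate 3 (0.0653). The acetylcholine receptor subunit gene Chrnb1 rose by 0.52 in Apc (SE 0.15, adjusted p = 0.0115) and Dok4, an adaptor of the same family, fell by 0.54 (SE 0.13, adjusted p = 0.00503). Apc Eif3h against WT gave 1 higher and 1 lower (29.8% and 28.1% of all genes), which were Chrnb1 (0.64) and Dok4 (-0.49). Skeletal muscle markers (Myh4, Acta1, Ckm, Tnnt3, Mb) summed to 16.9 to 70.05 CPM in Apc Eif3h, 11.9 to 23.3 in Apc and 10.4 to 12.6 in WT, with 1, 1 and 2 of the 5 at 0. Only 2 of the 5 passed the count filter, and 1 was called higher and 1 lower in each mutant group against WT. Apc Eif3h replicate 3 had the highest sum and the least Dok7, and was the lowest of its group for all 5 members. The part of muscle in the Dok7 level was not tested.

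Of 26 tested genes of the LDL receptor, reelin and ligand list, 3 were called higher and 12 lower in Apc against WT. Over all genes the shares were 27.7% higher and 24.1% lower. The median of the list was -0.32, and the counts were 6 and 5 with library totals. Dab1, the cytoplasmic adaptor of the reelin receptors, fell to 35.3 ± 10.8 CPM in Apc, against 111 ± 15.2 CPM in WT (-1.66, SE 0.26, adjusted p = 0.000301). The Wnt coreceptor gene Lrp5 rose by 0.60 (SE 0.11, adjusted p = 0.000665) and the scavenger receptor gene Lrp1 fell by 0.64 (SE 0.12, adjusted p = 0.00119). Among the ligands of Lrp8, the selenoprotein P gene Selenop fell to 2108 ± 900.0 CPM in Apc, against 6440 ± 1153 CPM in WT (-1.61, SE 0.39, adjusted p = 0.00445). The reelin gene Reln fell by 0.67 (SE 0.26, adjusted p = 0.0463), a call lost in 8 of 12 fits without a library (up to 0.141). The apolipoprotein E gene Apoe fell by 0.88 (SE 0.27, adjusted p = 0.0170). Of the other ligand genes on the list, Thbs1 rose by 0.45 (SE 0.15, adjusted p = 0.0245). Clu was not called (0.28, SE 0.81, adjusted p = 0.789). Against WT, 4 were higher and 13 lower in Apc Eif3h (29.8% and 28.1% of all genes), or 6 and 9 with library totals. In Apc Eif3h against Apc, 2 were higher and 1 lower (4.27% and 2.78% of all genes). Vldlr, the other reelin receptor, fell to 3.90 ± 0.728 CPM in Apc Eif3h, against 7.61 ± 1.82 CPM in Apc (-0.97, SE 0.21, adjusted p = 0.0195). Its call was lost without Apc replicate 4, Apc Eif3h replicate 1 or Apc Eif3h replicate 2 (up to 0.0528). Crkl (0.35) and Pafah1b1 (0.33) rose by small amounts and lost their calls in 11 and 9 of 20 alternatives.

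Relatives of Mboat1 split as well. Of 17 tested acyltransferase genes, 4 were called higher and 7 lower in Apc against WT (median -0.33), or 5 and 4 with library totals. Over all genes the shares were 27.7% higher and 24.1% lower. Lpcat4, a lysophospholipid acyltransferase gene, rose to 40.0 ± 8.72 CPM in Apc, against 8.24 ± 1.41 CPM in WT (2.28, SE 0.19, adjusted p = 7.06e-06). Soat1, which makes cholesterol esters, rose to 180 ± 11.2 CPM in Apc, against 46.2 ± 12.1 CPM in WT (1.96, SE 0.19, adjusted p = 1.75e-05). Agpat5 rose by 0.96 (SE 0.10, adjusted p = 2.41e-05), and Dgat1, which makes triglyceride in enterocytes, fell by 1.16 (SE 0.18, adjusted p = 0.000282). Mboat2, the closest relative by name, was at 1.54 ± 0.254 CPM in Apc and 1.98 ± 0.648 CPM in WT, with no call (-0.34, adjusted p = 0.303). Against WT, 3 were higher and 8 lower in Apc Eif3h (29.8% and 28.1% of all genes), or 7 and 7 with library totals. In Apc Eif3h against Apc, 0 of 17 were called by edgeR, where 7.05% of all genes were. Soat1, at 76.5 to 129 CPM in Apc Eif3h and 163.5 to 189 CPM in Apc, came nearest (-0.66, SE 0.19, adjusted p = 0.0528) and was called by DESeq2, with median-of-ratios scaling, in a fit of those groups alone and without WT replicate 1 or 3.

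**Figure D4:**
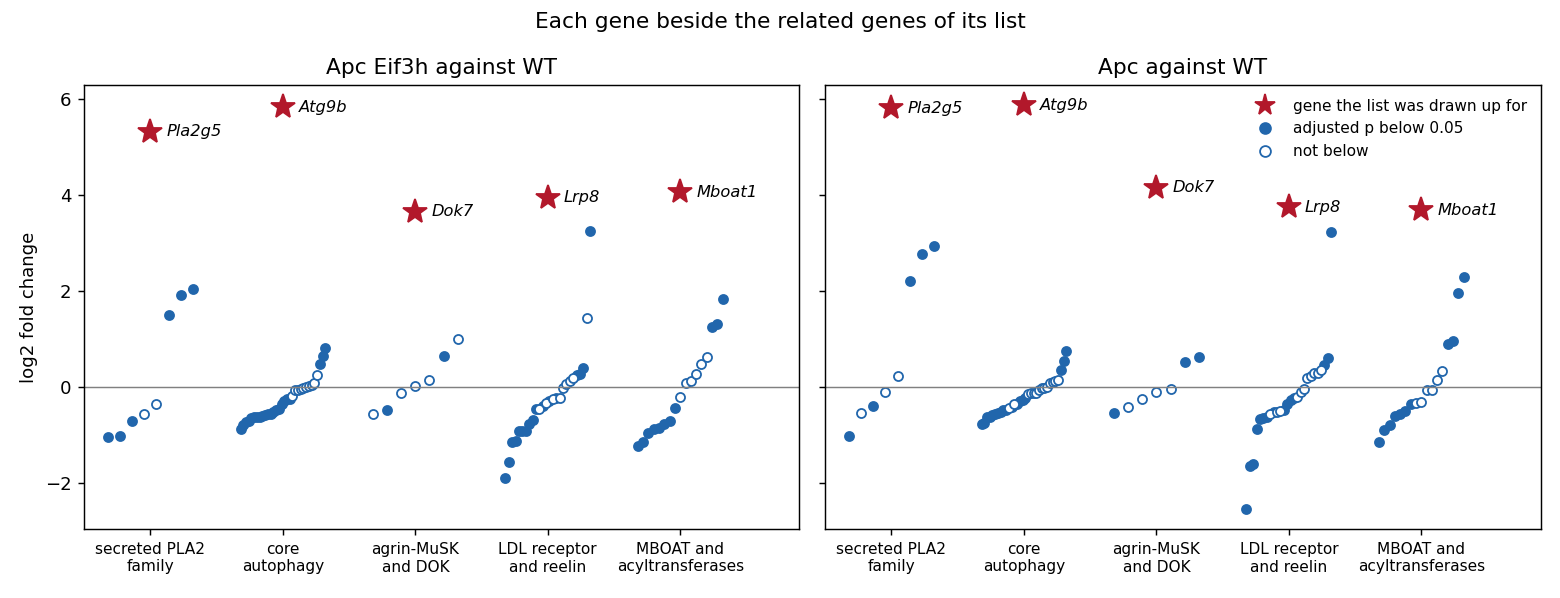
Log2 fold changes of Apc Eif3h against WT (left) and Apc against WT (right) for the related genes on each list (circles, filled where the adjusted p was below 0.05) and for the gene each list was drawn up for (stars). The stars lie at 3.64 to 5.82 on the left and 3.68 to 5.86 on the right, above every circle of their own list.

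Against WT, the tested neighbours of Lrp8, Dok7 and Mboat1 changed less than those members did. Magoh, 2915 bases beyond Lrp8, was higher by 0.65 in Apc against WT (SE 0.09, adjusted p = 0.000144) and Lrpap1, 3662 bases beyond Dok7, differed by -0.05 (adjusted p = 0.665). Hgfac, on the other side of Dok7, was at 11.4 ± 2.28 CPM in Apc Eif3h and 21.4 ± 4.85 CPM in Apc (-0.91, SE 0.17, adjusted p = 0.0109). Agtr1a, beside Mboat1, fell by 1.19 in Apc against WT (SE 0.22, adjusted p = 0.000912). E2f3, on the other side of Mboat1, was higher by 0.48 (SE 0.10, adjusted p = 0.00199). The antisense genes Lrp8os1 and Lrp8os2, within the Lrp8 span, stayed at or below 0.163 CPM in every library.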

How the data were processed

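The table deposited by the authors holds whole-number counts per gene, not normalized, for 12 libraries of paired reads of 36 cycles. Tools in the submitters' processing notes are featureCounts 1.6.4, HISAT2 2.1.0, Trim Galore 0.6.4 and FastQC 0.11.8, on GRCm38, without roles or settings. Not given in the sources used here are strand setting, annotation release and treatment of multiply mapped reads. Of 55421 identifiers, 55154 matched GENCODE M21, the source of symbols and coordinates. Promoter windows are RefSeq's (GRCm38.p6).

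Counts were tested in R 4.3.3 with edgeR 4.0.16 (filterByExpr, TMM, glmQLFit without legacy, glmQLFTest) on all 12 libraries with 1 mean per group, Benjamini-Hochberg adjustment over 17394 genes and calls below 0.05. SE is the absolute log2 fold change over the square root of F, and 95% intervals use the t quantile of the fit. The fit was also tested on simulated counts. DESeq2 1.42.0 and other settings were alternatives. The members and lists were chosen with earlier results of these data known. Named relatives are up to 4 called list genes of smallest p in a comparison. Atg9a, Musk, Mboat2, Selenop, Reln, Apoe, Thbs1, Clu and Vldlr were named for their relation to a member. The others were named for position, likeness or as all of a small count. Likeness rests on log2 CPM (prior count 2). All 18 replicate pairs differed by more than sampling noise, with a chi-square per gene of 17.5 to 51.5. Library totals were 10483112 to 21298301 counts. Some genes of the lists and of the likeness order are not reported here.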

Additional observations from a re-analysis of the deposited data

Results flagged for a closer look

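Dok7 in WT had 1 library far above the other 3, replicate 2 at 1.07 CPM, beside 0.33 to 0.416 CPM in the others. Of 21 groups of 4 examined in this way (7 genes in 3 groups), it was the only one past the limit, and chance passes about 5% of groups.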

How the results depend on the processing

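All 5 genes stayed called higher in Apc Eif3h against WT, and uncalled in Apc Eif3h against Apc, in each of the 20 alternatives. The calls against WT rest on WT libraries that also served to choose the genes. Signs turned, with no call, for Atg9b in Apc Eif3h against Apc with sex as a term (0.0496) and with males only (0.0779), and fits without a library gave -0.32 to 0.47 for Atg9b and -0.0858 to 0.70 for Mboat1. Dok7 in Apc against WT ran from 3.96 to 4.71 without a library. Genes called in Apc Eif3h against Apc numbered 1226, against 817 with no filter on low counts, 659 with males only and 406 to 1767 without a library (406 without Apc replicate 3, 1767 without Apc Eif3h replicate 3), with fewer libraries or other genes tested in each. Higher calls made up 60.6% of them, or 49.9% with library totals, and in Apc against WT 53.5% or 74.0%, in Apc Eif3h against WT 51.5% or 67.5%. Same-numbered libraries showed little common deviation (correlation -0.14 to 0.24, over 0.1 in 3 of 12 pairs, best match to the own number in 5 of 24). Pairing by number was not evident, though these correlations cannot exclude it. In Apc Eif3h against Apc, an edgeR fit with a replicate block called 993 genes and gave -0.51 for Pla2g5 (adjusted p = 0.119). WT counts as low as 2 limit the folds of Atg9b and Dok7.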
